A study of Arabidopsis thaliana with 12 samples.

Results

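Galactinol and raffinose synthesis was followed through 7 *Arabidopsis thaliana* genes, chosen by gene identifier from the 26891 genes of the count table. They are the galactinol synthase genes *GOLS1* (AT2G47180), *GOLS2* (AT1G56600), *GOLS3* (AT1G09350) and *GOLS4* (AT1G60470), the raffinose synthase gene *RS5* (AT5G40390), and *DIN10* (AT5G20250) and *SIP2* (AT3G57520), which belong to the raffinose synthase family by sequence. Whole seedlings of ecotype Columbia, 8 days old by the labels, were either wild type (WT) or carried a *cry1* mutation in the gene of the blue-light receptor cryptochrome 1, named only as a *cry1* mutant in the labels and listed as allele *cry1-304* in the study's methods. All seedlings had been raised at 22°C in continuous light for 7 days by the series design, and all then spent 1 day in blue light. The methods give a shorter time in white light than the design does. The 22°C groups (mock) stayed in blue light at 22°C and the 44°C groups (heat stress) were moved to 44°C in blue light, and both were sampled after 2 h. Each of the 4 groups held 3 RNA-seq libraries from independent biological replicates, and the comparisons ask how heat acts on these genes with and without CRY1. A single mutant genotype stands for the loss of CRY1.

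Galactinol synthase joins galactose from UDP-galactose to myo-inositol and so makes galactinol. Raffinose synthase then moves the galactose from galactinol onto sucrose, which gives raffinose and sets myo-inositol free again. Galactinol and raffinose build up in plants under heat, drought and cold and are known as protective sugars, and in *Arabidopsis* *GOLS1* and *GOLS2* are known as stress-induced synthases and *GOLS3* as a cold-induced one. Such genes are known targets of heat shock factors, which bind heat shock elements, and of DREB and CBF factors, which bind the dehydration-responsive element.

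All 12 libraries came from green seedlings with roots, since the 3 green-tissue markers and the 3 root markers on the lists were found in every group and the 3 flower markers summed to 0.681 CPM at most. CPM is a gene's count scaled to the library total (counts per 1000000), and the libraries held 10539279 to 21752836 counts, with every *cry1* library deeper than every WT library. The mutant label held: *CRY1* had 1774 to 2867 counts in each WT library, 2 to 5 in the *cry1* libraries at 22°C and 0 in those at 44°C, where 3 counts would be 0.186 to 0.197 CPM. On the scale of library totals the median gene of the 21309 tested moved by -0.86 (log2) with heat in WT, by -1.25 with heat in *cry1*, by 0.26 between *cry1* and WT at 22°C and by -0.11 at 44°C. Median-ratio scaling, which sets the typical gene to no change, brings these medians to between -0.05 and 0.03, so values on that scale are given for the 7 genes wherever a call differs between the scales. Unless another fit is named, adjusted p-values come from edgeR's quasi-likelihood test with Benjamini-Hochberg adjustment over the 21309 genes, and a gene was called at an adjusted p under 0.05.

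The promoter stretches of the 3 galactinol synthase genes whose heat responses differed between the genotypes are shown first, as the 300 bases before the RefSeq gene start (assembly TAIR10.1), written 5′ to 3′ on the gene's strand. Capitals mark the letters of heat shock element units (GAANNTTC or TTCNNGAA), of the dehydration-responsive element core (CCGAC or its reverse complement GTCGG) and of the G-box (CACGTG), a bZIP factor site that holds the abscisic acid-responsive core ACGTG. The *GOLS1* stretch lies at chr2:19370479-19370778 (reverse strand), the *GOLS2* stretch at chr1:21207237-21207536 and the *GOLS3* stretch at chr1:3019339-3019638 (both forward strand).
GOLS1: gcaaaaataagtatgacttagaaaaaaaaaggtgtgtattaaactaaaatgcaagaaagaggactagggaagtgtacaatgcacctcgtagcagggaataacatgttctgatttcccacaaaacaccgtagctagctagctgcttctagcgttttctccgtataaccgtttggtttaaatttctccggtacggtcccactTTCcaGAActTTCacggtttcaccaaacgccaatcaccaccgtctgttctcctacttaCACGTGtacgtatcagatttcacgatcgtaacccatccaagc
GOLS2: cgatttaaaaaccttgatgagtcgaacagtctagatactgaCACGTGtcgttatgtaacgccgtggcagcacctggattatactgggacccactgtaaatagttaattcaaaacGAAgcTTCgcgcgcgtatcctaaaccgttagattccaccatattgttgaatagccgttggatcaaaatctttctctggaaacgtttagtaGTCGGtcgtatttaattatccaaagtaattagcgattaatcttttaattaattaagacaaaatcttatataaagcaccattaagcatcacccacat
GOLS3: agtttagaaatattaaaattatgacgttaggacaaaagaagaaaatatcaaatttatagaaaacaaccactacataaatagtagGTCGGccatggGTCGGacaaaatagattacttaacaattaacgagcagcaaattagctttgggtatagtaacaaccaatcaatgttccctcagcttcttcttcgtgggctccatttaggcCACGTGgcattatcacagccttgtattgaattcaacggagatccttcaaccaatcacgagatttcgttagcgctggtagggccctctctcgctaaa

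*GOLS1* holds a heat shock element of 3 alternating units (TTC, GAA and TTC, set 2 bases apart) at 100 to 88 bases before its start, made of a pair of overlapping 2-unit elements. Of the 27438 promoters of the same length, 0.485% hold 3 such units (beginning with TTC or with GAA) on either strand, and *GOLS1* was the only one of the 7 genes to hold it. A 2-unit element stands in 19.3% of all promoters and in *GOLS1*, *GOLS2* (186 to 179 bases before the start) and *GOLS4*. The letters CCGAC stand in 13.9% of all promoters and in *GOLS2* (96 to 92 bases before the start), *RS5* (152 to 148 bases) and, at 2 places, *GOLS3* (216 to 212 and 205 to 201 bases). The G-box is found in 7.09% of all promoters and in 4 of the 7 genes, *GOLS1*, *GOLS2*, *GOLS3* and *SIP2*. The core ACGTG is found in 25.6% of all promoters, and it stands in those 4 genes only as part of the G-box and in *DIN10* without one. These matches are letters in a fixed window, and no binding was measured in these data.

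*GOLS1* went from a low level at 22°C to one of the highest in the transcriptome at 44°C in both genotypes. Its level in the 3 WT libraries was 11.6, 13.3 and 12.3 CPM at 22°C and 2865, 2836 and 2862 CPM at 44°C. In the *cry1* libraries it was 8.87, 8.65 and 8.88 CPM at 22°C and 3639, 3939 and 3741 CPM at 44°C. No 2 of the 4 groups overlapped: the mutant lay below WT at 22°C and above it at 44°C in every library. Heat raised *GOLS1* by 7.85 ± 0.10 (log2 fold change ± SE, a 230-fold rise, adjusted p = 2.7e-23, edgeR) in WT and by 8.74 ± 0.10 (429-fold, adjusted p = 7.7e-24, edgeR) in *cry1*. Among the 21309 tested genes this was the 32nd largest rise in WT and the 23rd in *cry1*. Per transcript length, its mean level of 8.90 FPKM (CPM per 1000 bases of exon, rebuilt from the counts and exon lengths) ranked 9397th of 26891 genes in WT at 22°C, whereas 2050 FPKM ranked 44th at 44°C. In *cry1* it went from rank 12320 to rank 34.

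The sign of the genotype difference in *GOLS1* turned with temperature. It was lower in *cry1* than in WT at 22°C, by -0.50 ± 0.09 (adjusted p = 4.0e-04, edgeR), and higher at 44°C, by 0.40 ± 0.07 or 1.32-fold (adjusted p = 2.1e-04, edgeR). The heat response of *cry1* exceeded that of WT by 0.90 ± 0.12 (log2), a genotype by temperature interaction with an edgeR adjusted p of 1.4e-05, and 1.28 on the median-ratio scale. *GOLS1* lies on chromosome 2 (19368798-19370478, reverse strand, 4 exons, TAIR10.1) and its end shares 43 bases with a gene on the other strand, *ARF1A1C* (AT2G47170). The kit named in the labels keeps the strand, but whether the counting used it is not stated.

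**Figure D1:**
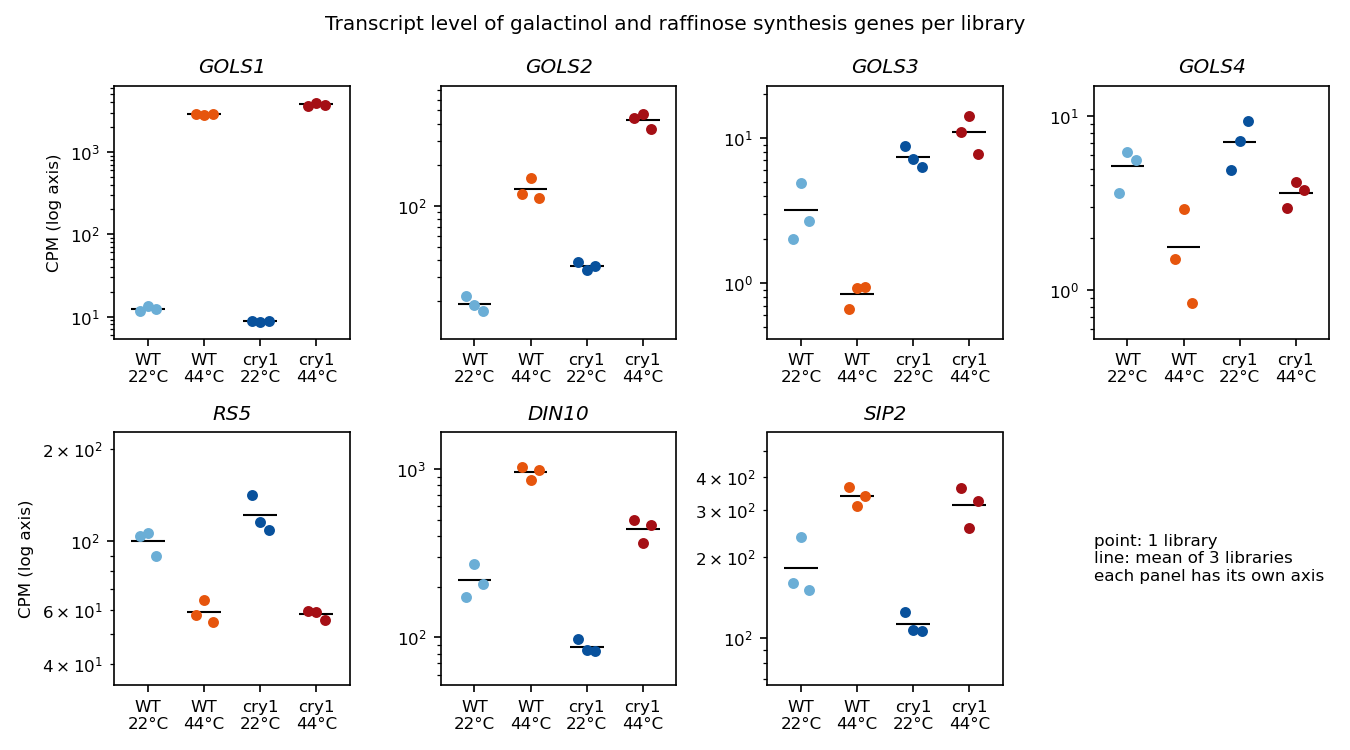
Level of each of the 7 genes in CPM (log axis, each panel with its own range) in the 4 groups, with 1 point per library and a line at the mean of 3 libraries. *GOLS1* stands at 8.65 to 13.3 CPM at 22°C and at 2836 to 3939 CPM at 44°C, and *GOLS3* is at 0.664 to 0.935 CPM in WT at 44°C but at 7.75 to 14.3 CPM in *cry1*.

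*GOLS2*, the other synthase known for stress induction, also rose with heat in both genotypes, and it was higher in *cry1* than in WT at both temperatures. It stood at 21.9, 19.0 and 17.2 CPM in WT at 22°C and at 123, 159 and 115 CPM at 44°C. The *cry1* libraries held 39.0, 34.2 and 36.1 CPM at 22°C and 437, 471 and 363 CPM at 44°C. The 4 groups followed each other without overlap, from WT at 22°C over *cry1* at 22°C and WT at 44°C to *cry1* at 44°C. The rise with heat was 2.78 ± 0.14 (6.85-fold, edgeR adjusted p = 4.9e-12) in WT and 3.54 ± 0.13 (11.6-fold, edgeR adjusted p = 7.6e-14) in *cry1*. The mutant exceeded WT by 0.92 ± 0.13 at 22°C (1.89-fold, edgeR adjusted p = 9.8e-05) and by 1.68 ± 0.12 at 44°C (3.20-fold, edgeR adjusted p = 1.1e-07). These heat responses differed by 0.76 ± 0.18 (edgeR adjusted p = 0.0048). *GOLS2* lies on chromosome 1 (21207537-21209635, forward strand, 4 exons) and overlaps no annotated gene.

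*GOLS3*, the synthase known for cold induction, had the largest genotype difference of the 7 genes at 44°C. In WT it stood at 2.02, 4.90 and 2.69 CPM at 22°C and at 0.664, 0.919 and 0.935 CPM at 44°C, which are 7, 11 and 10 counts. In *cry1* it stood at 8.78, 7.14 and 6.28 CPM at 22°C and at 11.02, 14.3 and 7.75 CPM at 44°C. WT fell below its own 22°C range with heat in every library, whereas the 22°C and 44°C ranges of *cry1* overlapped, and each *cry1* library lay above each WT library of the same temperature. Heat lowered *GOLS3* in WT by -1.94 ± 0.40 (edgeR adjusted p = 2.5e-04), and by -1.13 on the median-ratio scale (edgeR adjusted p = 0.026). In *cry1* the change was 0.57 ± 0.24 (edgeR adjusted p = 0.036), and this call was lost in both limma fits (adjusted p = 0.10 and 0.057) and without *cry1* replicate 2 or 3 at 22°C or replicate 1 or 2 at 44°C (edgeR adjusted p = 0.073 to 0.23). On the median-ratio scale that change was 1.77 (edgeR adjusted p = 5.9e-06).

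The excess of *cry1* over WT in *GOLS3* was 1.19 ± 0.27 at 22°C (2.29-fold, edgeR adjusted p = 0.0027) and 3.71 ± 0.35 at 44°C (13.1-fold, 95% interval 7.85 to 21.8, edgeR adjusted p = 9.2e-07). At 44°C this ranked 29th from the top among 21309 genes. The heat responses differed by 2.51 ± 0.47 (edgeR adjusted p = 7.9e-04), and they also had opposite signs on both scales. *GOLS3* lies on chromosome 1 (3019639-3021443, forward strand, 2 annotated transcripts) and overlaps no annotated gene. Its low counts in WT at 44°C limit how exactly the 13.1-fold difference is known.

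*GOLS4*, the remaining synthase of the 4, was low in every group. It stood at 3.63, 6.23 and 5.61 CPM in WT at 22°C and at 1.52, 2.92 and 0.841 CPM at 44°C. The *cry1* libraries held 4.92, 7.20 and 9.35 CPM at 22°C and 2.97, 4.19 and 3.74 CPM at 44°C. The 44°C values lay below the 22°C values within each genotype, while the genotypes overlapped at 22°C and just missed each other at 44°C. With library totals it fell with heat by -1.53 ± 0.36 in WT (edgeR adjusted p = 9.6e-04) and by -0.98 ± 0.30 in *cry1* (edgeR adjusted p = 0.0059). Both calls ended with median-ratio scaling, at -0.72 (edgeR adjusted p = 0.094) in WT and 0.22 (edgeR adjusted p = 0.53) in *cry1*, so its direction in *cry1* depends on the scale. The genotype difference was 0.46 ± 0.29 at 22°C (edgeR adjusted p = 0.22) and 1.02 ± 0.37 at 44°C (95% interval 0.24 to 1.80, edgeR adjusted p = 0.052), the latter called on the median-ratio scale (1.15, edgeR adjusted p = 0.032). Without WT replicate 2 at 44°C it was 1.62 (edgeR adjusted p = 0.0058). The heat responses were not called different (0.56 ± 0.47, edgeR adjusted p = 0.41). *GOLS4* (chromosome 1, 22278975-22280593, reverse strand) shares 33 bases with AT1G60460 on the other strand, and 0.307% of its 50-base stretches also occur in another transcript of the galactinol synthase family, against none for the other 3.

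Added up per transcript length, the 4 galactinol synthase genes went from 28.3 ± 2.0 FPKM (mean ± SD, n = 3) at 22°C to 2144 ± 7.1 FPKM at 44°C in WT, and from 41.8 ± 1.6 to 3016 ± 134 FPKM in *cry1*. At 22°C *GOLS2* held the largest share of this sum in every library, 47.8% ± 6.5 in WT and 60.7% ± 2.3 in *cry1*, and *GOLS1* held 31.5% ± 1.4 and 15.1% ± 0.36. At 44°C *GOLS1* held 95.6% ± 0.79 in WT and 89.9% ± 1.1 in *cry1*, and *GOLS2* 4.29% ± 0.75 and 9.78% ± 1.0. The share of *GOLS1* was thus lower in each *cry1* library than in each WT library of the same temperature. *GOLS3* and *GOLS4* together made up the rest, with *GOLS3* at 7.21% ± 2.9 in WT and 11.5% ± 1.8 in *cry1* at 22°C and at 0.0253% and 0.235% at 44°C. With 3 libraries against 3 an exact permutation test on a share cannot go below p = 0.10, and none was run.

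**Figure D2:**
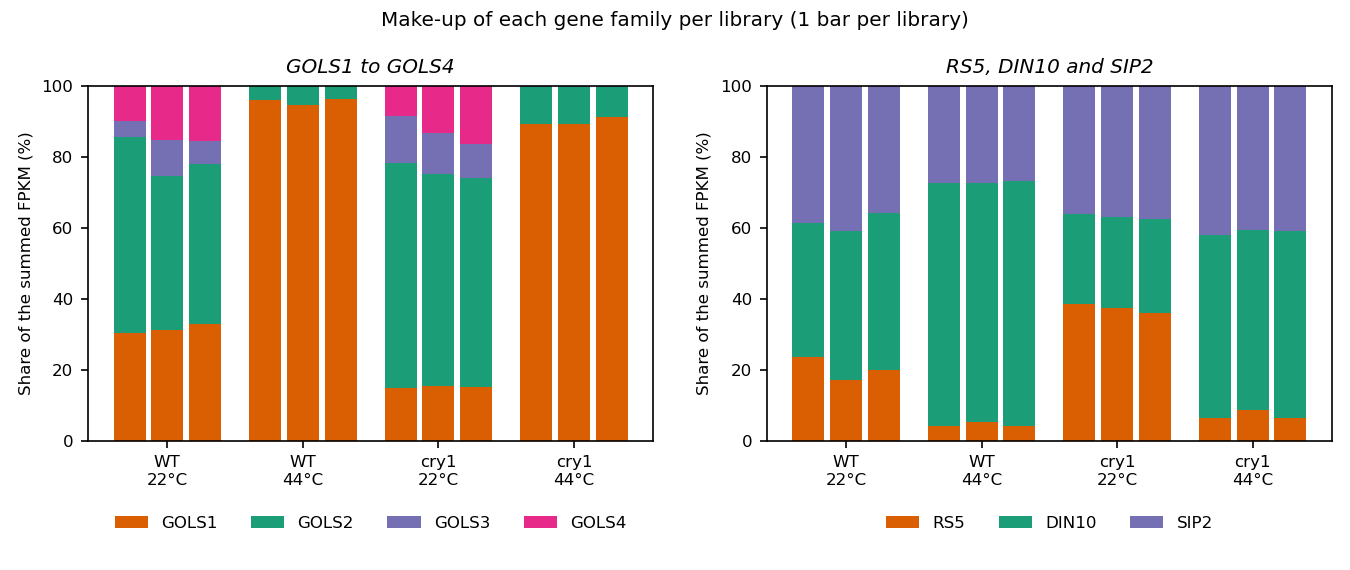
Share of each gene in the summed FPKM of its family (%), 1 bar per library, for the 4 galactinol synthase genes (left) and the 3 raffinose synthase family genes (right). *GOLS1* takes 94.7% to 96.2% of the synthase sum in the WT libraries at 44°C, and *RS5* goes from 36.0% to 38.4% of its family's sum in *cry1* at 22°C to 6.44% to 8.66% at 44°C.

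*RS5*, which encodes the raffinose synthase of leaves, did not share the rise of *GOLS1* and *GOLS2*. It stood at 104, 106 and 90.0 CPM in WT at 22°C and at 57.8, 64.7 and 54.6 CPM at 44°C. In *cry1* it stood at 141, 116 and 109 CPM at 22°C and at 59.5, 59.1 and 55.4 CPM at 44°C. The 44°C libraries lay below all 22°C libraries, and at 44°C the genotypes overlapped. With library totals *RS5* fell with heat by -0.76 ± 0.10 in WT (edgeR adjusted p = 4.7e-07) and by -1.07 ± 0.10 in *cry1* (edgeR adjusted p = 1.2e-09), changes close to those of the median gene (-0.86 and -1.25). On the median-ratio scale its change was 0.05 in WT (edgeR adjusted p = 0.65) and 0.12 in *cry1* (edgeR adjusted p = 0.28). Relative to the typical gene, *RS5* was therefore not called in either direction.

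Between the genotypes *RS5* was higher in *cry1* at 22°C by 0.29 ± 0.09 (edgeR adjusted p = 0.021), and this call was lost with median-ratio scaling (0.04, edgeR adjusted p = 0.84), without WT replicate 3 at 22°C (0.22, edgeR adjusted p = 0.11) and without *cry1* replicate 1 at 22°C (0.17, edgeR adjusted p = 0.16). At 44°C the difference was -0.03 ± 0.10 (95% interval -0.23 to 0.18, edgeR adjusted p = 0.89). The heat responses were not called different (-0.31 ± 0.14, edgeR adjusted p = 0.094), except without *cry1* replicate 3 at 22°C (-0.39, edgeR adjusted p = 0.043). The median gene stood at -0.33 in this interaction, and with median-ratio scaling *RS5* stood at 0.07 (edgeR adjusted p = 0.81). *RS5* lies on chromosome 5 (16161449-16165453, forward strand, 5 exons) and overlaps no annotated gene.

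*DIN10*, a raffinose synthase family gene known for its induction in darkness and under sugar shortage, rose with heat in both genotypes and was lower in *cry1* than in WT at both temperatures. It stood at 174, 274 and 208 CPM in WT at 22°C and at 1028, 862 and 978 CPM at 44°C. In *cry1* it stood at 97.7, 83.6 and 83.4 CPM at 22°C and at 496, 362 and 465 CPM at 44°C. The 4 groups did not overlap, and the highest *cry1* library at each temperature stayed below the lowest WT library. Heat raised it by 2.13 ± 0.16 in WT (4.37-fold, edgeR adjusted p = 6.9e-08) and by 2.32 ± 0.16 in *cry1* (4.99-fold, edgeR adjusted p = 2.4e-08). The mutant was lower by -1.31 ± 0.16 at 22°C (edgeR adjusted p = 8.9e-05) and by -1.12 ± 0.16 at 44°C (edgeR adjusted p = 2.5e-04), that is, WT held 2.48 and 2.17 times the level of *cry1*. The heat responses were not called different (0.19 ± 0.22, 95% interval -0.29 to 0.68, edgeR adjusted p = 0.56). *DIN10* (chromosome 5, 6833564-6836862, forward strand, 4 annotated transcripts) shares 82 bases with AT5G20260 on the other strand.

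*SIP2*, a family member known to encode an alpha-galactosidase that splits raffinose, rose with heat too, by less than *DIN10*. It stood at 160, 238 and 150 CPM in WT at 22°C and at 368, 312 and 341 CPM at 44°C. In *cry1* it stood at 124, 107 and 106 CPM at 22°C and at 364, 258 and 324 CPM at 44°C. The genotypes were apart at 22°C and overlapped at 44°C. Heat raised *SIP2* by 0.90 ± 0.17 in WT (1.86-fold, edgeR adjusted p = 5.8e-04) and by 1.49 ± 0.18 in *cry1* (2.81-fold, edgeR adjusted p = 7.5e-06). It was lower in *cry1* at 22°C by -0.70 ± 0.17 (edgeR adjusted p = 0.0091), and at 44°C the difference was -0.11 ± 0.17 (95% interval -0.49 to 0.27, edgeR adjusted p = 0.71). The heat responses differed by 0.59 ± 0.24, which missed the threshold (edgeR adjusted p = 0.095) and passed it with median-ratio scaling (0.97, edgeR adjusted p = 0.015), without WT replicate 3 at 22°C (0.72, edgeR adjusted p = 0.039) and without *cry1* replicate 2 at 44°C (0.72, edgeR adjusted p = 0.039). *SIP2* lies on chromosome 3 (21288742-21293171, reverse strand, 3 annotated transcripts) and overlaps no annotated gene.

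Per transcript length, *DIN10* and *SIP2* led the 7 genes in WT at 22°C, at 70.1 ± 16 and 65.3 ± 17 FPKM (mean ± SD, n = 3), with ranges that overlapped. They were followed by *RS5* (33.4 ± 2.9 FPKM), *GOLS2* (13.5 ± 1.7), *GOLS1* (8.90 ± 0.61), *GOLS4* (3.82 ± 1.0) and *GOLS3* (2.07 ± 0.97 FPKM), and of these neighbours only *GOLS4* and *GOLS3* overlapped. In *cry1* at 22°C *RS5* (40.8 ± 5.7 FPKM) and *SIP2* (40.2 ± 3.7) stood at the top and overlapped, and *DIN10* (28.3 ± 2.6) overlapped with *GOLS2* (25.4 ± 1.7 FPKM). The 3 lowest there, *GOLS1* (6.32 ± 0.094 FPKM), *GOLS4* (5.30 ± 1.6) and *GOLS3* (4.79 ± 0.82 FPKM), each overlapped with the next in order. At 44°C *GOLS1* led in both genotypes, followed by *DIN10* (306 ± 27 FPKM) and *SIP2* (122 ± 9.999 FPKM) in WT but by *GOLS2* (295 ± 38 FPKM) and *DIN10* (141 ± 22 FPKM) in *cry1*. *DIN10* and *SIP2* (113 ± 19 FPKM) overlapped in *cry1* at 44°C, and no other neighbours in the order did so at that temperature in either genotype. Within the raffinose synthase family, *RS5* fell from 20.2% ± 3.2 of the summed FPKM to 4.44% ± 0.73 in WT and from 37.3% ± 1.2 to 7.21% ± 1.3 in *cry1*, with no overlap between the temperatures.

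Counted together, 4 of the 7 genes were called higher with heat in WT (*GOLS1*, *GOLS2*, *DIN10* and *SIP2*), against 15.3% of all tested genes, and 3 were called lower (*GOLS3*, *GOLS4* and *RS5*), against 61.1%. In *cry1* 5 were higher, against 11.3%, since *GOLS3* joined them, and 2 were lower (*GOLS4* and *RS5*), against 72.8%. With median-ratio scaling, where 34.4% and 35.2% of all genes were higher and 35.6% and 36.4% lower, the higher genes were the same 4 in WT and the same 5 in *cry1*, while 1 gene (*GOLS3*) was lower in WT and none in *cry1*. The median change over the 7 genes was 0.90 in WT and 1.49 in *cry1* with library totals, beside -0.86 and -1.25 over all tested genes, and 1.71 and 2.68 with median-ratio scaling, beside -0.05 and -0.05. The 2 heat comparisons share no library.

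Between the genotypes at 22°C, 3 of the 7 genes were higher in *cry1* (*GOLS2*, *GOLS3* and *RS5*), against 31.6% of all tested genes, and 3 were lower (*GOLS1*, *DIN10* and *SIP2*), against 7.35%. With median-ratio scaling these were 2 of 7 (*GOLS2* and *GOLS3*) against 7.02% and the same 3 against 13.4%. At 44°C 3 were higher in *cry1* (*GOLS1*, *GOLS2* and *GOLS3*), against 8.63%, and *DIN10* was lower, against 17.3%. With median-ratio scaling *GOLS4* joined the higher ones, against 13.9%, and *DIN10* alone was again lower, against 10.9%. In the interaction 3 genes had a heat response higher in *cry1* than in WT (*GOLS1*, *GOLS2* and *GOLS3*), against 3.88% of all tested genes, and none had a lower one by edgeR or DESeq2, against 24.2% by edgeR. At an unadjusted edgeR p under 0.05 there was 1 lower gene, *RS5*, at -0.31 beside a median of -0.33 over all tested genes. With median-ratio scaling 11.5% of all genes were higher and 5.35% lower in the interaction, and *SIP2* joined the higher genes.

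**Figure D3:**
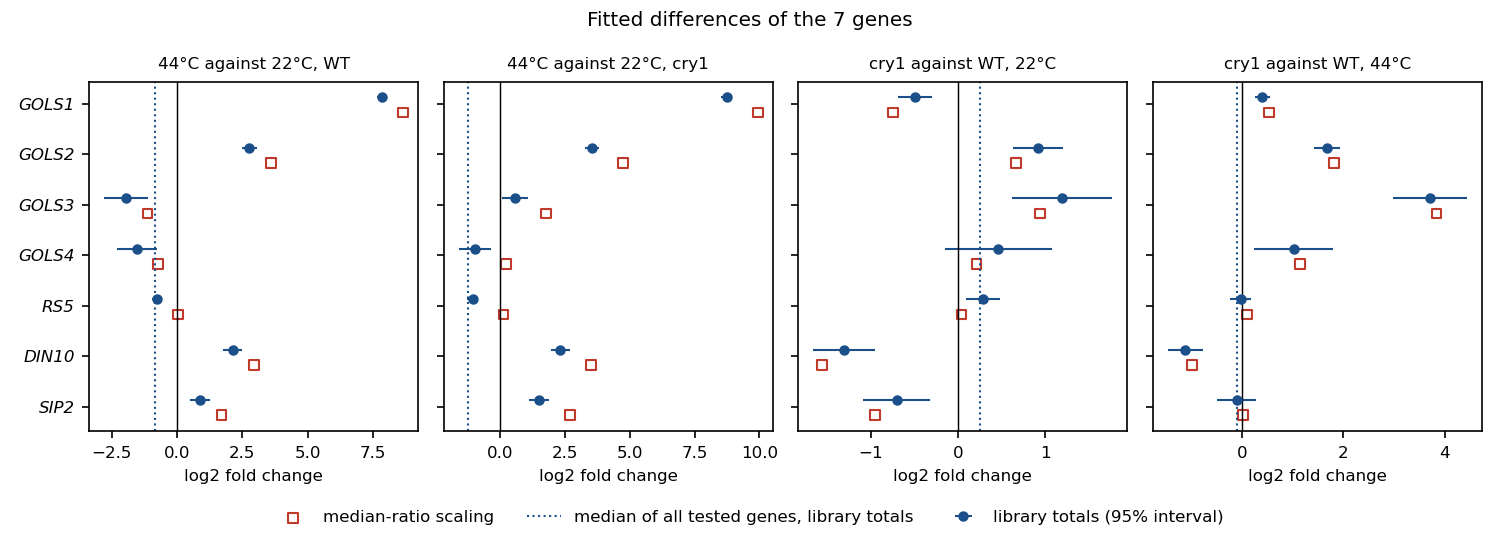
Log2 fold changes of the 7 genes in the 4 comparisons (horizontal axis, each panel with its own range). Filled points are library totals with their 95% intervals, open squares median-ratio scaling, and the dotted line the median of all tested genes with library totals. *RS5* sits beside that line with heat (-0.76 against -0.86 in WT, -1.07 against -1.25 in *cry1*), and *GOLS3* stands at 3.71 in *cry1* against WT at 44°C.

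Other transcripts moved with the groups in the same whole seedlings, in which fewer cells of a type and less RNA per cell cannot be told apart. With heat the sum of the 3 root markers went from 4188 to 4401 CPM down to 280 to 362 CPM in WT and from 4003 to 4811 CPM down to 277 to 330 CPM in *cry1*, and the sum of the 3 green-tissue markers from 35787 to 36330 CPM down to 21360 to 23941 CPM in WT and from 24379 to 27576 CPM down to 19314 to 21485 CPM in *cry1*. The green-tissue genes did not move together: *RBCS1A* and *RCA* were lower at 44°C in each genotype, whereas *LHCB1.3* went from 13513 to 14344 CPM up to 16806 to 18708 CPM in WT and from 9264 to 12913 CPM up to 14717 to 16828 CPM in *cry1*. Between the genotypes the sum of 7 markers of maturing seeds was 17.4 to 29.3 CPM in WT and 63.5 to 363 CPM in *cry1* at 22°C, and 2.92 to 10.9 CPM in WT and 53.3 to 109 CPM in *cry1* at 44°C. *CRA1*, a seed storage protein gene, led that sum in each group, while the 4 *SESA* storage protein genes on the list stayed under 1 CPM on average in each group. Galactinol and raffinose genes are also known to act in seeds, and the part of these shifts in the differences of the 7 genes was not tested. In replicates 1, 2 and 3 of *cry1* at 22°C the seed marker sum was 363, 63.5 and 255 CPM. In the same order *GOLS2* stood at 39.0, 34.2 and 36.1 CPM, *GOLS3* at 8.78, 7.14 and 6.28 CPM and *RS5* at 141, 116 and 109 CPM. *DIN10* stood at 97.7, 83.6 and 83.4 CPM and *SIP2* at 124, 107 and 106 CPM. *GOLS1* stood at 8.87, 8.65 and 8.88 CPM, and *GOLS4* rose in this order, at 4.92, 7.20 and 9.35 CPM. Whether the 7 genes vary with the seed marker sum was not tested.

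Outside the 7 genes, the galactinol synthase family was low in level. Of 6 further family genes on the list, 5 were in the table and 2 passed the filter on low values, *GOLS7* (mean of 0.0538 to 0.462 CPM) and *GOLS8*. *GOLS7* was called higher in *cry1* at 22°C (3.16, edgeR adjusted p = 0.025), on 2, 0 and 0 counts in WT and 7, 15 and 5 in *cry1*. This call was lost with median-ratio scaling (2.91, edgeR adjusted p = 0.066). *GOLS8* went from 5.27 ± 0.48 to 1.70 ± 0.64 CPM (mean ± SD, n = 3) in WT and from 6.15 ± 0.84 to 1.48 ± 0.17 CPM in *cry1*, a fall by 1.64 and 2.06 (log2, edgeR adjusted p = 5.5e-06 and 5.9e-08). *STS*, the stachyose synthase gene, was at 0.622 ± 0.26 CPM and 0.597 ± 0.27 CPM in WT and rose from 1.28 ± 0.27 to 2.65 ± 1.2 CPM in *cry1* (edgeR adjusted p = 0.011). At 44°C *STS* was higher in *cry1* than in WT by 2.15 (edgeR adjusted p = 0.0012), on 8, 9 and 3 counts in WT.

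The genes that supply the substrates of galactinol synthase held some of the clearest changes near the pathway. *MIPS2*, a gene of myo-inositol-phosphate synthase, which makes the inositol backbone, was the only one of 6 inositol synthesis genes to rise with heat. The other 5 fell in both genotypes, as did 61.1% of all tested genes in WT and 72.8% in *cry1*. *MIPS2* stood at 56.5, 57.1 and 62.1 CPM in WT at 22°C and 165, 209 and 187 CPM at 44°C, and at 30.5, 32.7 and 34.5 CPM in *cry1* at 22°C and 678, 817 and 658 CPM at 44°C. Like *GOLS1*, it was lower in *cry1* than in WT in each library at 22°C and higher in each at 44°C. Its heat rise was 1.68 ± 0.10 in WT (edgeR adjusted p = 1.6e-12) and 4.46 ± 0.11 in *cry1* (edgeR adjusted p = 7.5e-19), and these differed by 2.79 ± 0.14 (edgeR adjusted p = 1.1e-10). *VTC4* and *IMPL1*, genes of the inositol monophosphatase family, fell furthest among the other 5, *VTC4* from 37.6 ± 2.1 to 2.49 ± 0.51 CPM in WT and from 26.9 ± 1.9 to 2.04 ± 0.62 CPM in *cry1*. With median-ratio scaling 4 of those 5 were still lower in WT, against 35.6% of all tested genes, and 3 in *cry1*, against 36.4%.

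*UGE1*, a gene of the UDP-galactose epimerase that makes UDP-galactose, rose from 42.0 ± 1.7 to 439 ± 44 CPM in WT and from 46.0 ± 2.3 to 496 ± 68 CPM in *cry1*. These rises of 3.39 ± 0.10 and 3.43 ± 0.10 (edgeR adjusted p = 4.1e-17 and 2.2e-17) were not called different between the genotypes (0.05 ± 0.14, edgeR adjusted p = 0.84; 0.43 on the median-ratio scale, edgeR adjusted p = 0.022). Of the 5 *UGE* genes, 3 rose and 1 (*UGE4*) fell in each genotype with library totals. Of all tested genes, 15.3% rose and 61.1% fell in WT, and 11.3% rose and 72.8% fell in *cry1*. With median-ratio scaling 4 *UGE* genes were higher in WT, against 34.4% of all tested genes, and 5 in *cry1*, against 35.2%. On that scale *UGE4* turned from -0.55 to 0.27 in WT (edgeR adjusted p = 0.099) and from -0.87 to 0.32 in *cry1* (edgeR adjusted p = 0.034). Of the 3 myo-inositol oxygenase genes tested, which break down inositol, *MIOX2* rose in WT from 27.2 ± 4.6 to 63.1 ± 12 CPM. In *cry1* it rose from 9.64 ± 1.2 to 64.8 ± 10 CPM, a difference of 1.54 ± 0.24 between the heat responses (edgeR adjusted p = 3.9e-04). *MIOX4* was called higher with heat in *cry1* (3.35, edgeR adjusted p = 0.0017) but not in WT (1.83, edgeR adjusted p = 0.065). *MIOX1* was called lower in WT and *cry1* with library totals (-0.91 and -0.85, edgeR adjusted p = 9.9e-05 and 8.7e-05). With median-ratio scaling *MIOX4* was called higher in both, and *MIOX1* in neither direction (edgeR adjusted p = 0.65 and 0.076).

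On the sucrose side, *SPS4F*, a sucrose phosphate synthase gene, fell with heat from 309 ± 15 to 12.2 ± 1.7 CPM in WT and from 234 ± 9.5 to 16.6 ± 1.9 CPM in *cry1*, whereas *SPS2F* rose by 1.45 ± 0.11 and 1.28 ± 0.10 (edgeR adjusted p = 1.2e-10 and 3.1e-10). Of the 6 sucrose synthase genes, none rose with heat in either genotype by edgeR with library totals, also at an unadjusted p under 0.05. In WT 3 fell, against 61.1% of all tested genes, and in *cry1* 4 fell, against 72.8%. With median-ratio scaling 4 of the 6 were higher and 1 lower in each genotype, so their direction depends on the scale. Of all tested genes, 34.4% were then higher and 35.6% lower in WT, and 35.2% and 36.4% in *cry1*. The 3 acid alpha-galactosidase genes, whose enzymes remove galactose from raffinose sugars, fell in both genotypes with library totals, as did 61.1% of all tested genes in WT and 72.8% in *cry1*. With median-ratio scaling *AGAL3* was higher in both and *AGAL1* higher in *cry1*, while *AGAL2* remained lower in both (25.7 ± 1.8 to 5.27 ± 0.15 CPM in WT, 35.8 ± 2.8 to 9.62 ± 0.68 CPM in *cry1*).

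Among 7 genes of transcription factors known to act upstream of galactinol synthase genes, 5 rose with heat in both genotypes. *HSFA1A* fell in both, by -0.70 in WT and -1.26 in *cry1* (edgeR adjusted p = 0.0012 and 3.0e-07), and *HSFA1B* was not called. Of all tested genes, 15.3% rose and 61.1% fell in WT, and 11.3% and 72.8% in *cry1*. With median-ratio scaling 6 of the 7 rose in both, against 34.4% and 35.2% of all tested genes. *HSFA1A* was then not called (0.11 and -0.06, edgeR adjusted p = 0.59 and 0.73). *HSFA2*, a heat shock factor gene, went from 1.25 ± 1.0 to 2885 ± 99.9 CPM in WT and from 2.71 ± 1.3 to 3519 ± 184 CPM in *cry1*. *DREB2A*, whose protein binds the dehydration-responsive element, went from 6.07 ± 1.6 to 1237 ± 17 CPM in WT and from 7.58 ± 0.89 to 1304 ± 40 CPM in *cry1*. Neither was called different between the genotypes at 22°C or 44°C (edgeR adjusted p = 0.088 to 0.62). *CBF3*, a gene of the cold-response factors that bind the same element, was higher in *cry1* than in WT at 22°C (4.08 ± 0.29 against 1.56 ± 0.43 CPM, edgeR adjusted p = 5.6e-05) and at 44°C (29.0 ± 4.1 against 18.02 ± 1.7 CPM, edgeR adjusted p = 6.2e-04). *CBF1* was called higher in *cry1* at 22°C (1.21, edgeR adjusted p = 0.027), but not with median-ratio scaling (0.96, edgeR adjusted p = 0.11) or at 44°C (0.41, edgeR adjusted p = 0.26). *CBF2* was not called at 22°C (0.11, edgeR adjusted p = 0.85) or 44°C (0.24, edgeR adjusted p = 0.48). *CBF3* rose with heat in WT by 3.52 ± 0.19 (edgeR adjusted p = 3.1e-13) and in *cry1* by 2.83 ± 0.15 (edgeR adjusted p = 1.5e-13).

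Over all 9 lists, 37 genes were tested. Of these, 11 were higher and 17 lower with heat in WT with library totals, against 15.3% and 61.1% of all tested genes. In *cry1* 13 were higher and 18 lower, against 11.3% and 72.8%. With median-ratio scaling 22 were higher and 9 lower in WT, against 34.4% and 35.6%, and 24 and 7 in *cry1*, against 35.2% and 36.4%. Between the genotypes 15 were higher and 6 lower in *cry1* at 22°C with library totals, against 31.6% and 7.35% of all tested genes. At 44°C there were 9 and 2, against 8.63% and 17.3%. With median-ratio scaling 4 were higher and 6 lower at 22°C, against 7.02% and 13.4%, and 14 and 2 at 44°C, against 13.9% and 10.9%. In the interaction 4 were higher (*MIPS2*, *MIOX2*, *SPS4F* and *AGAL1*), against 3.88% of all tested genes, and 2 lower (*CBF3* and *SUS1*), against 24.2%. With median-ratio scaling 9 were higher, against 11.5% of all tested genes. Both lower calls were lost, with *CBF3* at -0.31 (edgeR adjusted p = 0.44) and *SUS1* at -0.24 (edgeR adjusted p = 0.32), where 5.35% of all genes were lower.

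**Figure D4:**
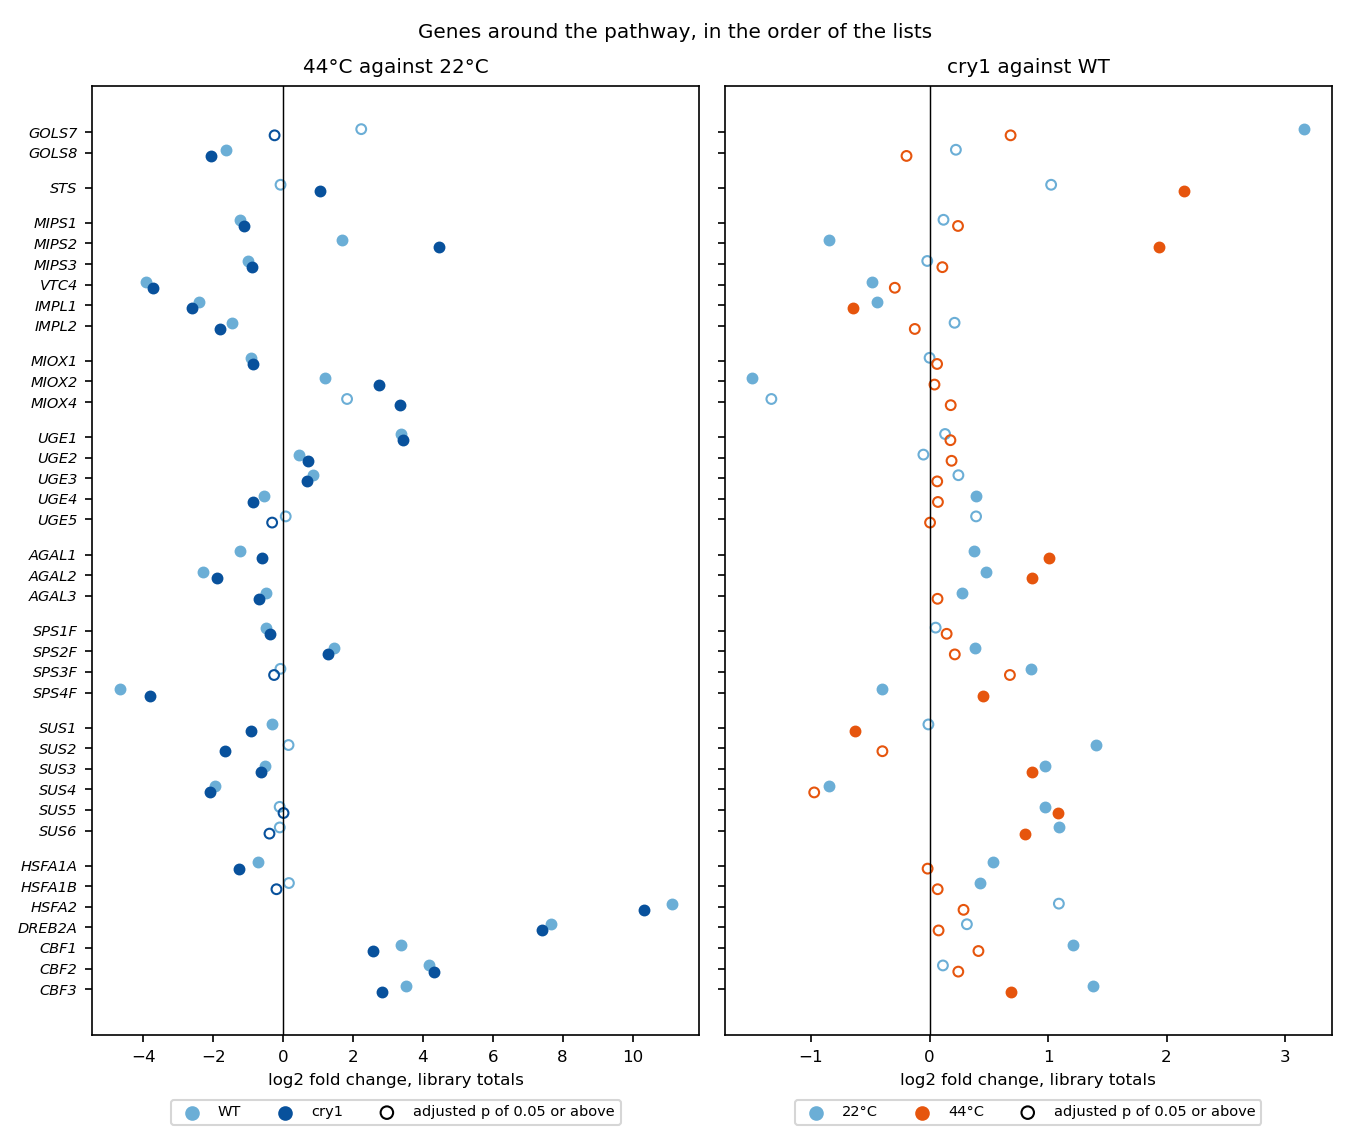
Log2 fold changes (library totals, horizontal axis) of the 37 tested genes of the 9 pathway lists, with heat in each genotype (left) and between the genotypes at each temperature (right), open where the adjusted p was 0.05 or above. *MIPS2* is the only inositol synthesis gene to the right of 0 with heat (1.68 in WT, 4.46 in *cry1*), and *HSFA2* and *DREB2A* stand farthest to the right.

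The 7 genes fell into different patterns over the 12 libraries, described by Pearson's r of log2(CPM + 0.5), a value without a test since the libraries share 4 groups and 1 scaling. *DIN10* and *SIP2* were closest to each other (r = 0.96), followed by *GOLS1* and *GOLS2* (0.92), while *GOLS3* had r between -0.54 and 0.61 with the other 6. The 3 genes outside the set most like *GOLS1* were *CLPB3* (r = 1.000), the chloroplast disaggregase gene, *HSFB2A* (1.000), a heat shock factor gene, and *EGY3* (0.999). *GOLS2* was nearest to AT2G21820 (0.996) and to the G-box factor genes *GBF3* (0.994) and *GBF2* (0.992). *GOLS3* was nearest to *COR15B* (0.973), a cold-regulated gene that went from 87.5 to 15.4 CPM with heat in WT and from 225 to 321 CPM in *cry1* (means of 3 libraries). *GOLS4* was nearest to *HMA5* (0.950), *RS5* to *WNK7* (0.988), *DIN10* to AT1G22890 (0.990) and *SIP2* to AT1G13990 (0.980).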

How the data were processed

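RNA-seq libraries of whole seedlings (3 in each of 4 groups) were read from 1 table of expected counts per gene that the authors deposited. Per the study's methods, reads from rRNA-depleted RNA were trimmed with Trimmomatic 0.39 and quantified with RSEM 1.3.1 on TAIR10, whereas the submitters' processing notes name TopHat2 2.0.11 and the labels name polyA RNA. Between 8.50% and 11.6% of the values above 0 were not whole (tolerance 0.001), and all were rounded. All 26891 identifiers were found in RefSeq TAIR10.1, which gave positions, exon lengths and promoter sequence; the deposited table holds no coordinates. FPKM values were rebuilt from counts and exon lengths.

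The 21309 genes whose mean FPKM exceeded -5 on the log2 scale in all 4 groups were tested in 1 fit of the 12 libraries with edgeR 4.0.16 (R 4.3.3; robust quasi-likelihood, library totals as scale, biological coefficient of variation 0.103), with calls at p under 0.05 after Benjamini-Hochberg adjustment. The fitting code was run on simulated counts in which few genes changed and all genes shared the same spread. That run could not test the choice of scale. Alternatives were median-ratio and TMM scaling, DESeq2 1.42.0, limma 3.58.1 on log2(FPKM + 0.1) and log2(FPKM + 1), no filter, a mean FPKM of at least 1, the compared groups only, a replicate block and each library left out. Each SE is the size of the log2 fold change divided by the square root of the test's F statistic. Intervals are 95%, are built on these SE values and cover the spread between these libraries. The libraries of a group differed beyond sampling noise (chi-square per gene 4.42 to 13.3) and none was merged.

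The 7 genes, the 9 gene lists and the motifs were chosen with earlier results of these data known. Named are the 7 genes, up to 2 list genes called higher and 2 called lower with the largest change per list and comparison, and per gene the 3 outside genes with the highest r among those with at least 10 CPM on average in 1 group; other list genes named were chosen after their values were seen. *GOLS10* and *MIOX5* were not analysed here, and 1 listed gene is not reported here.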

Additional observations from a re-analysis of the deposited data

Results flagged for a closer look

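The heat response differed between the genotypes by the edgeR interaction test for 3 of the 7 genes. On the log2 scale the *cry1* response exceeded the WT response by 0.90 for *GOLS1* (7.85 in WT, 8.74 in *cry1*), by 0.76 for *GOLS2* (2.78 and 3.54) and by 2.51 for *GOLS3* (-1.94 and 0.57). These differences were higher with median-ratio scaling, at 1.28, 1.14 and 2.89.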

How the results depend on the processing

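Of 728 values of the 35 fold changes under other settings, 673 kept direction and call, and 23 of the 35 results did so under all settings run. The scale made most of the difference, and its cause was not tested. In the order median-ratio, TMM and DESeq2, genes called higher with heat in WT numbered 7324, 7178 and 7289 (3270 with library totals) and lower 7576, 7743 and 7515 (13024). In *cry1* they numbered 7496, 7347 and 7442 higher (2403) and 7756, 7962 and 7642 lower (15523). Between genotypes at 22°C they were 1495, 1670 and 1527 higher (6735) and 2861, 2727 and 2934 lower (1567), and at 44°C 2956, 3105 and 3033 higher (1839) and 2331, 2229 and 2401 lower (3688). In the interaction they were 2451, 2422 and 2617 higher (826) and 1140, 1150 and 1233 lower (5147). Of the 7 genes, 1 rather than 3 then fell with heat in WT and 0 rather than 2 in *cry1*, and DESeq2 called 5 rather than 3 higher in the interaction, adding *SIP2* and *DIN10* (0.57). In the same order the sign turned for *RS5* with heat in WT (0.0536, 0.0293 and 0.0535) and in *cry1* (0.12, 0.0921 and 0.12), between genotypes at 44°C (0.105, 0.118 and 0.105) and in the interaction (0.0664, 0.0628 and 0.0667), for *GOLS4* with heat in *cry1* (0.22, 0.19 and 0.22), and for *SIP2* between genotypes at 44°C (0.0233, 0.037 and 0.0232).

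With each library left out in turn, 403 of 420 values kept direction and call. Uncalled values changed sign for *RS5* at 44°C without WT replicate 2 or *cry1* replicate 3 at 44°C (range -0.0788 to 0.0462), for *SIP2* at 44°C without *cry1* replicate 2 at 44°C (-0.2235 to 0.0178) and for *DIN10* in the interaction without WT replicate 2 at 22°C (-0.0039 to 0.3321). Over these fits 0 to 1 of the 7 genes were called lower in the interaction. The fit with the replicate number as a block changed 1 call, *GOLS4* at 44°C (1.04, adjusted p = 0.015, edgeR), which was also called by all 3 other scalings, both limma fits, the compared groups alone and 4 of the 12 fits without a library. Same-numbered libraries of different groups did not deviate together (r from -0.13 to 0.23 over 18 pairs, 2 of them over 0.1, and 3 of 12 libraries closest to their own number), so the numbers were not read as pairs. The depth limits *GOLS3* and *GOLS4* most, with 7 to 35 counts per WT library at 44°C.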
